A study of Mus musculus with 6 samples.

Results

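The 10 mast cell genes described here were taken by gene symbol from a table of 23518 genes and comprise the granule proteases Tpsb2, Tpsab1, Cma1, Mcpt4 and Cpa3, the receptors Kit, Ms4a2, Fcer1a and Mrgprb2, and the histamine-forming enzyme gene Hdc. All 10 were listed in the table and all 10 had at least 1 base per Mb in each of the 6 libraries, so that no gene entered the test through a single genotype. RNA was sequenced from mouse ear skin in 3 libraries labelled HdR and 3 wild-type (WT) libraries. The design text names the altered mice HOIL1 ΔRING1, which is taken here as what HdR stands for and as a HOIL1 protein lacking RING1; HOIL1 is a subunit of the linear ubiquitin chain assembly complex. In both genotypes the ears had been treated with 10 mg of a cream holding 5% imiquimod, a Toll-like receptor agonist, and were sampled on day 1, so skin without imiquimod was not compared. The sources used here do not give strain, age or sex, and although the study's title speaks of keratinocytes, the labels do not say in which cells the gene was altered. The labels number the libraries without saying that each came from its own animal, so the p-values measure the spread between these samples, which may be technical. The report gives normalised coverage, the aligned bases of a gene per Mb of aligned sequence after scaling between libraries. The log2 change of a gene is its HdR mean minus its WT mean of log2(value + 1), so the change of a gene with few bases comes out too small.

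Mast cells are resident immune cells of connective tissue, and in the dermis they lie close to vessels, nerves and hair follicles. Their granules hold serine proteases, carboxypeptidase A3, histamine and heparin, and they release them when IgE bound to the high-affinity IgE receptor is crosslinked by antigen or when the receptor MRGPRB2 meets cationic ligands. Stem cell factor, the ligand of the receptor tyrosine kinase KIT, keeps them alive in tissue.

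The libraries held 4433 to 5264 Mb of aligned bases in HdR and 5038 to 5966 Mb in WT, which at 300 bases a read pair are 14.8 to 17.5 M pairs in HdR and 16.8 to 19.9 M in WT. Rbck1, the gene of HOIL1, had 23.9, 13 and 19.7 bases per Mb in HdR replicates 1, 2 and 3 and 66.6, 55.1 and 64.1 in WT replicates 1, 2 and 3 (log2 change -1.7, limma adjusted p = 0.00438). The keratinocyte genes Krt5, Krt14 and Krt10 had at least 1210 bases per Mb in every library. Krt14 fell in HdR (2450 ± 305 in HdR and 4010 ± 491 in WT, SD, n = 3 each; log2 change -0.71, limma adjusted p = 0.0487), Krt5 had every HdR library below every WT library without passing (log2 change -0.4, limma adjusted p = 0.214), and Krt10 overlapped (log2 change -0.14, limma adjusted p = 0.659). Long transcripts had relatively less coverage in HdR than in WT. The slope of the log2 deviation of a gene from its 6-library mean on log2 transcript length was -0.125, -0.272 and -0.0805 in HdR replicates 1 to 3 and 0.190, 0.0404 and 0.247 in WT replicates 1 to 3. The share of bases on Rn45s, the ribosomal RNA precursor gene, was 0.368%, 1.54% and 1.21% in HdR replicates 1 to 3 and 0.115%, 0.119% and 0.102% in WT replicates 1 to 3, with no overlap. The part of keratinocyte content and of ribosomal RNA in the mast cell gene values was not tested. WT replicate 2 was the WT library nearest to the HdR libraries in the length slope, and it also had the highest WT coverage of 9 of the 10 mast cell genes, as it had for 40.8% of all genes tested.

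The protease genes are shown first by sequence, because related genes can share reads. Tpsb2 and Tpsab1 encode tryptases, trypsin-like proteases stored bound to heparin. They lie 20.7 kb apart on chromosome 17 with no protein-coding gene between them, Tpsab1 (ENSMUSG00000024173.11) at chr17:25343245-25345562 on the minus strand and Tpsb2 (ENSMUSG00000033825.10) at chr17:25366305-25369098 on the plus strand of GRCm38. Cma1 and Mcpt4 encode chymases, chymotrypsin-like proteases of connective tissue mast cells, and lie 115.0 kb apart on the minus strand of chromosome 14 (Cma1, ENSMUSG00000022225.7, at chr14:55941451-55944675 and Mcpt4, ENSMUSG00000061068.7, at chr14:56059629-56062313), with Cma2, Mcpt1, Mcpt9 and Mcpt2 between them. The coding sequences of Tpsb2 and Tpsab1 were identical at 75.8% of the aligned bases and those of Cma1 and Mcpt4 at 67.7%, against 57.9% to 61.7% between a tryptase and a chymase. The 60 coding bases around the codons of the conserved stretch that holds the catalytic serine (capitals), from GENCODE M21, show this.
Tpsb2: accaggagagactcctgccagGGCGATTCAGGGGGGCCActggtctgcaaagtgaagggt
Tpsab1: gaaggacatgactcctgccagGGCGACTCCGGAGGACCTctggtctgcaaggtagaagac
Cma1: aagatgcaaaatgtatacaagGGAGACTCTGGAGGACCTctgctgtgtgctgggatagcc
Mcpt4: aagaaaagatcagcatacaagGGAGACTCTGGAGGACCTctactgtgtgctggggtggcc

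Within these 60 bases the tryptases differed from each other at 19 positions and the chymases at 11, and the 18 capital bases were the same in both chymases. The tryptases differed from each other at 5 of these 18 bases, whereas Tpsab1 differed from either chymase at 2 and Tpsb2 at 6, so the capital stretch alone does not group the genes by family. No window of 50 bases of the principal Tpsb2 or Tpsab1 transcript occurred in a transcript of another gene. Of the windows of Cma1 5.46% occurred in the gene model Gm48934, and of those of Mcpt4 5.48% occurred in Cma2 or Mcpt9, so a small part of the reads of both chymases could be shared. The other 6 genes had no shared window.

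Both member tryptases, Tpsb2 and Tpsab1, rose in HdR skin, while Tpsg1, a tryptase gene outside the set that was named after its values were seen, did not pass (5.41 ± 0.781 bases per Mb in HdR and 4.55 ± 2.15 in WT, SD, n = 3 each; limma adjusted p = 0.459). Tpsb2 had 125, 108 and 103 bases per Mb in HdR replicates 1, 2 and 3, against 61.5, 82.3 and 51.9 in WT replicates 1, 2 and 3. Every HdR library lay above every WT library, and the ratio of the means was 1.72. In bulk skin a difference in the number of mast cells and one in the RNA per mast cell cannot be told apart. Tpsb2 averaged 112 ± 11.6 in HdR and 65.2 ± 15.5 in WT (SD, n = 3 each), a log2 change of 0.79 (SE 0.19, 95% interval 0.36 to 1.23, limma adjusted p = 0.0208). It did not pass in 10 of the 20 alternative fits described at the end.

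Tpsab1 was less covered than Tpsb2, with 16.3, 7.02 and 12.4 bases per Mb in HdR and 3.48, 6.75 and 3.67 in WT. The groups did not overlap, but HdR replicate 2 and WT replicate 2 were nearly equal. The means were 11.9 ± 4.65 in HdR and 4.63 ± 1.83 in WT (SD, n = 3 each), with a log2 change of 1.17 (SE 0.32, limma adjusted p = 0.0281). Tpsab1 did not pass in 10 of the 20 alternative fits. This gene rested on 68 to 266 read pairs per library, the fewest of the 10, against 1192 to 2048 for Tpsb2.

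The chymases and the carboxypeptidase, the most covered genes of the set, did not pass in the limma fit of all 6 libraries without a block. Cma1 had 233, 218 and 178 bases per Mb in HdR and 141, 191 and 117 in WT (log2 change 0.51, 95% interval 0.03 to 0.99, limma adjusted p = 0.0939). Mcpt4 had 315, 343 and 259 in HdR and 220, 309 and 164 in WT (log2 change 0.44, 95% interval -0.11 to 0.99, limma adjusted p = 0.181). With the replicate number as a block both passed (limma adjusted p = 0.0238 for Cma1 and 0.035 for Mcpt4). Both also passed by voom with sample quality weights (limma adjusted p = 0.00779 and 0.0352) and without WT replicate 2 (limma adjusted p = 0.0167 and 0.0262). With the length trend removed their changes were -0.06 and -0.12. In both genes WT replicate 2 lay above the lowest HdR library, and the other WT libraries lay below all HdR libraries.

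Cpa3 encodes the carboxypeptidase that trims peptides in the granule and lies on the minus strand at chr3:20215620-20242181 (ENSMUSG00000001865.2), where it overlaps the microRNA gene Mir7007 on the same strand. It had 214, 206 and 207 bases per Mb in HdR and 159, 268 and 117 in WT. The HdR libraries were nearly equal (209 ± 3.89, SD, n = 3), whereas WT spread widely (181 ± 78.0, SD, n = 3), with WT replicate 2 above all HdR libraries. The log2 change was 0.29 (95% interval -0.33 to 0.90, limma adjusted p = 0.427), and its sign turned with scaling to total bases (-0.03). Cpa3 did not pass with the replicate block either (limma adjusted p = 0.302), but it passed without WT replicate 2 (limma adjusted p = 0.0243).

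**Figure D1:**
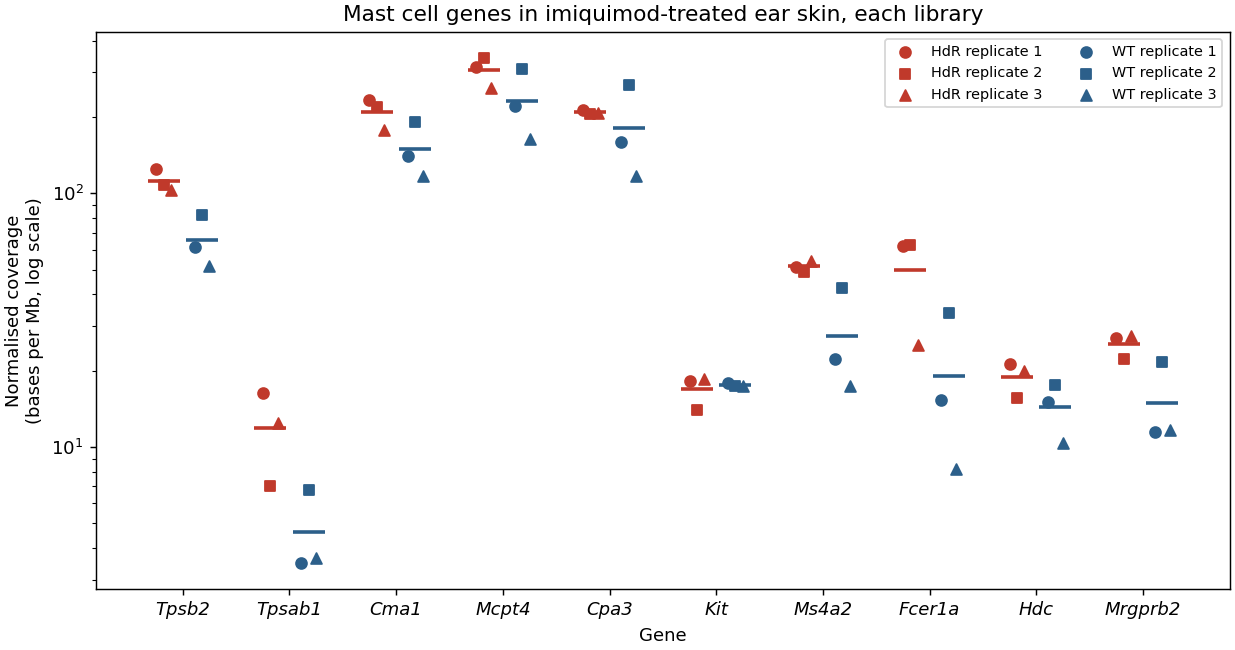
Normalised coverage (bases per Mb, log axis) of the 10 mast cell genes in each HdR library (red, left) and WT library (blue, right), with lines at the group means. Tpsb2, Tpsab1, Ms4a2 and Mrgprb2 have all HdR points above all WT points, and WT replicate 2 (blue squares) is the highest WT point in 9 genes.

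Among the receptors, the IgE receptor beta chain gene and the gene of MRGPRB2 rose. Ms4a2 (ENSMUSG00000024680.12, chr19:11615523-11623719, minus strand) encodes the beta chain, which amplifies signalling of the receptor. It had 51.4, 49.1 and 54.2 bases per Mb in HdR and 22.3, 42.3 and 17.4 in WT. All HdR libraries lay above WT, with a spread of 51.6 ± 2.52 in HdR against 27.3 ± 13.2 in WT (SD, n = 3 each), and the log2 change was 0.99 (SE 0.28, 95% interval 0.35 to 1.63, limma adjusted p = 0.0323). In 9 of the 20 alternative fits Ms4a2 did not pass.

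Mrgprb2 (ENSMUSG00000050425.2, chr7:48550965-48558086, minus strand) encodes a receptor for cationic peptides and drugs that activates mast cells without IgE. Its coverage was 26.9, 22.3 and 27.5 in HdR and 11.5, 21.7 and 11.7 in WT. The groups did not overlap, though HdR replicate 2 and WT replicate 2 came within 1 base per Mb of each other. The log2 change was 0.79 (SE 0.25, limma adjusted p = 0.0414). In 11 of the 20 alternative fits Mrgprb2 did not pass.

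Fcer1a (ENSMUSG00000005339.10, chr1:173221284-173227214, minus strand) encodes the chain that binds IgE. It had 62.1, 62.5 and 25.3 bases per Mb in HdR and 15.3, 33.7 and 8.23 in WT. HdR replicate 3 fell below WT replicate 2, so the groups overlapped. The log2 change of 1.45 was the highest of the 10 genes, with the widest interval (0.35 to 2.54), and it did not pass (limma adjusted p = 0.0503), but it passed with the replicate number as a block (limma adjusted p = 0.00184). Fcer1g, the gene of the signalling gamma chain that other Fc receptors use too, had 86.4, 69.9 and 48.8 in HdR and 59.0, 80.1 and 46.6 in WT (log2 change 0.14, limma adjusted p = 0.696).

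Kit (ENSMUSG00000005672.12, chr5:75574916-75656722, plus strand) had 18.3, 14.0 and 18.5 bases per Mb in HdR and 17.9, 17.4 and 17.4 in WT. The WT libraries were nearly equal and lay within the HdR range. The log2 change was -0.06 (95% interval -0.45 to 0.33, limma adjusted p = 0.807), and its sign differed between scalings (-0.36 with total scaling, 0.15 with quantile normalisation). Melanocytes express Kit too, and the summed coverage of 12 melanocyte markers was 54.9, 80.9 and 66.4 in HdR and 96.7, 122 and 92.2 in WT. Of the 10 melanocyte markers tested 4 fell (Tyr, Tyrp1, Slc45a2 and Trpm1) and none rose, also at an unadjusted p under 0.05 (limma) and by voom, while Dct did not pass (24.4 ± 6.18 in HdR and 28.7 ± 7.16 in WT, SD, n = 3 each). Without WT replicate 1, 2 or 3 the number that fell was 2. Of all genes tested 17.9% fell, and 1.55%, 22.6% and 5.04% fell without WT replicates 1, 2 and 3. The part of melanocytes in the Kit value was not tested.

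Hdc (ENSMUSG00000027360.5, chr2:126593667-126619299, minus strand) encodes histidine decarboxylase, which makes histamine. It had 21.3, 15.6 and 19.9 bases per Mb in HdR and 15.1, 17.5 and 10.4 in WT, and the groups overlapped (log2 change 0.40, 95% interval -0.10 to 0.90, limma adjusted p = 0.188). Slc18a2, which loads histamine into granules, did not pass either (13.2 ± 2.40 in HdR and 10.7 ± 1.93 in WT, SD, n = 3 each).

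Counted together, 4 of the 10 mast cell genes rose and 0 fell by limma (6 and 0 at an unadjusted p under 0.05), where 12.7% of all 15049 genes tested rose and 17.9% fell. By voom with sample quality weights 8 rose and 0 fell, against 22.6% and 30.9% of all genes. The groups did not overlap for 4 members, all with HdR above WT, a pattern of 20.9% of all genes, and the opposite pattern, found in 30.7% of all genes, occurred in no member. The median log2 change of the members was 0.65, beside -0.13 over all genes tested. With scaling to total bases these medians were 0.33 and -0.41, and 0 members passed (4 were higher at an unadjusted p under 0.05), where 6.1% of all genes rose and 28.6% fell. The distance between the medians was 0.77 in the first fit and 0.74 with total scaling. With the length trend removed the medians were 0.42 and -0.1, a distance of 0.52, and by principal transcript length 0.31 and -0.09, a distance of 0.41. The distance was 0.63 without the filter on low values and 0.97 without WT replicate 2. With quantile normalisation 5 members rose, where 15.6% of all genes rose and 13.8% fell.

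The calls depended on single libraries and on how the libraries were paired and corrected. With the replicate number as a block, 7 members rose, the additional ones being Cma1, Mcpt4 and Fcer1a (limma adjusted p = 0.0238, 0.035 and 0.00184), where 18.3% of all genes rose and 27.2% fell. Without WT replicate 2, 8 rose, all but Kit and Hdc, where 17.9% of all genes rose and 22.6% fell. Without HdR replicate 1, WT replicate 1 or WT replicate 3 the count was 0 (4, 4 and 5 at an unadjusted p under 0.05), without HdR replicate 2 it was 1 and without HdR replicate 3 it was 2. Of all genes, 6.96% rose and 11.9% fell when HdR replicate 1 was left out, 5.18% and 7.64% when it was HdR replicate 2, and 10.3% and 13.5% when it was HdR replicate 3. With WT replicate 1 left out 1.33% rose and 1.55% fell, and with WT replicate 3 left out 4.1% and 5.04%. With the length trend removed from each library 0 members passed (4 at an unadjusted p under 0.05), where 7.93% of all genes rose and 11.5% fell. The changes of Cma1, Mcpt4 and Cpa3 then turned to -0.06, -0.12 and -0.16, that of Tpsb2 was 0.29, and those of Tpsab1, Ms4a2, Fcer1a, Hdc and Mrgprb2 were 0.89, 0.85, 0.84, 0.64 and 0.55. With the length trend removed and the replicate block, Ms4a2, Fcer1a and Hdc rose, where 12.2% of all genes did and 19.9% fell. With the trend and each library's mean removed Ms4a2 and Hdc rose (10.9% of all genes rose and 8.48% fell). Without the filter on low values 0 members passed (5 at an unadjusted p under 0.05), where 4.37% of all genes rose and 4.84% fell, and at a threshold of 0.1 the count was 6 (17.8% and 26.5%).

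**Figure D2:**
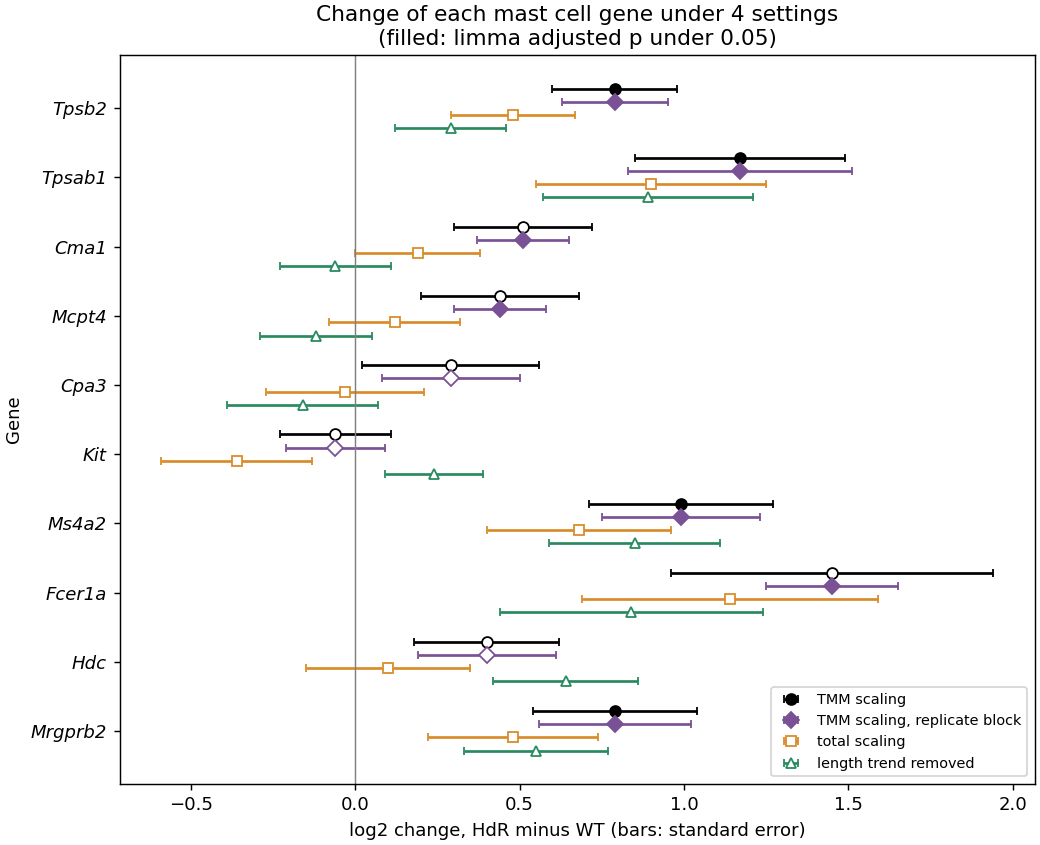
The log2 change, HdR minus WT, of each gene (bars, standard error of the limma fit) with trimmed-mean (TMM) scaling, with the replicate block added, with scaling to total bases and with the length trend removed. Filled symbols have a limma adjusted p under 0.05. The chymases and Cpa3 lie between -0.16 and -0.06 once the length trend is removed. Ms4a2, Tpsab1 and Fcer1a stay at 0.68 or more in all 4 settings.

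The spread within a genotype was described without a test. The SD of the log2 values was larger in WT than in HdR for 8 of the 10 genes, all but Tpsab1 and Kit, and for 44.1% of all genes tested. For Cpa3 it was 0.03 in HdR and 0.60 in WT, and for Ms4a2 0.07 and 0.64. WT replicate 2 was the highest WT library in both. WT replicate 3 was the lowest WT library for 7 genes and for 37% of all genes. With WT replicate 2 set aside because it was seen to overlap HdR, each HdR library lay above the other WT libraries for 9 members, all but Kit, and for 29% of all genes. Summed over the 10 genes, coverage was 1083, 1046 and 906 bases per Mb in HdR and 666, 990 and 519 in WT, so the sums of the groups overlapped through WT replicate 2.

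**Figure D3:**
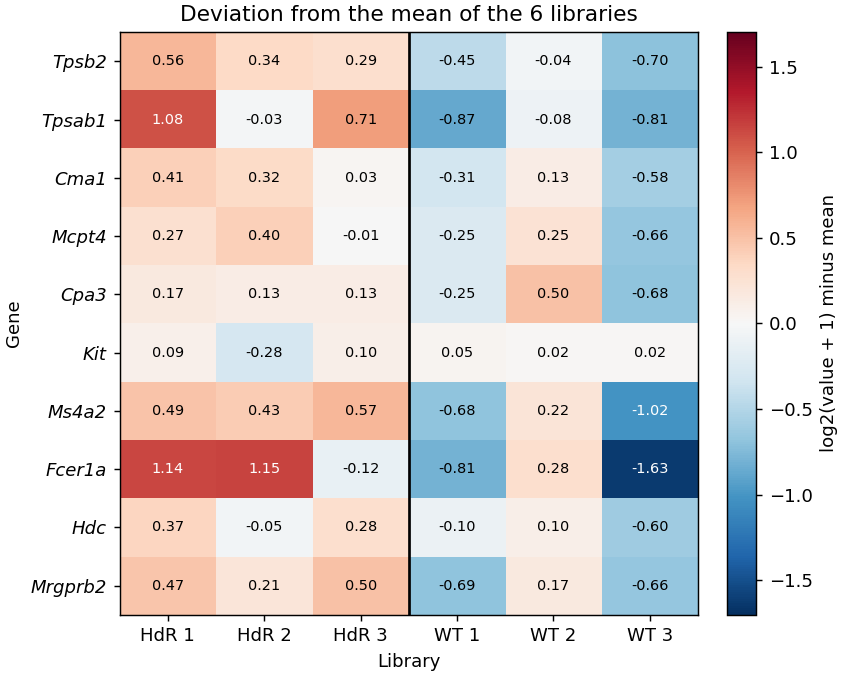
Deviation of each gene from its mean over the 6 libraries on the log2(value + 1) scale, HdR libraries left of the line and WT libraries right of it. WT replicate 2 lies between -0.08 and 0.50 for all genes, whereas WT replicates 1 and 3 are below 0 for every gene except Kit.

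Ratios of members within a library do not depend on the scaling between libraries. The ratio of Cpa3 to Ms4a2 coverage was 4.15, 4.20 and 3.82 in HdR and 7.13, 6.34 and 6.76 in WT. The groups did not overlap, and the mean ratio in HdR was 0.602 of that in WT. The ratio of Tpsb2 to Cpa3 was 0.587, 0.522 and 0.500 in HdR and 0.388, 0.307 and 0.442 in WT, and that of Cpa3 to Mrgprb2 was 7.94, 9.28 and 7.52 in HdR and 13.8, 12.4 and 10.0 in WT, again with no overlap. The ratio of the chymases, Cma1 to Mcpt4, was 0.741, 0.635 and 0.687 in HdR and 0.640, 0.619 and 0.710 in WT and overlapped. Of the 45 pairs of members 15 had ratios that did not overlap between the genotypes (33.3%), beside 48.3% of all pairs of genes tested, so the share was not above the background. Kit was in 5 of these pairs and Fcer1a in 0.

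The order of the levels was compared per kb of the principal transcript. Mcpt4 ranked first in all 6 libraries, at 276 bases per Mb per kb in HdR (range 234 to 310) and 208 in WT (148 to 279), and its range overlapped that of Cma1 in WT but not in HdR. Cma1 followed with 196 in HdR (166 to 217) and 139 in WT (109 to 178), and Cpa3 with 144 (143 to 147) and 125 (81.1 to 185). The ranges of Cma1 and Cpa3 were apart in HdR and overlapped in WT, where Cpa3 passed Cma1 in replicate 2. Tpsb2 had rank 4 in all 6 libraries, apart from its neighbours in both genotypes, with 100 in HdR (92.6 to 112) and 58.3 in WT (46.4 to 73.6).

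Ms4a2 and Fcer1a, which encode chains of the same receptor, stood side by side and overlapped, at 51.1 and 50 per kb in HdR and at 27.0 and 19.1 in WT. Mrgprb2 had 12.3 per kb in HdR and 7.22 in WT, a range that overlapped that of Fcer1a in WT and that of Tpsab1 in both genotypes. Tpsab1 (10.3 in HdR, 4.01 in WT) and Hdc (7.90 in HdR, 5.98 in WT) had overlapping ranges in both genotypes, and they exchanged places in the order of the means between the genotypes. Kit had the lowest mean in both genotypes, at 3.24 in HdR (2.68 to 3.55), apart from the other genes, while in WT its 3.36 (3.33 to 3.43) lay within the range of Tpsab1 (3.01 to 5.84).

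**Figure D4:**
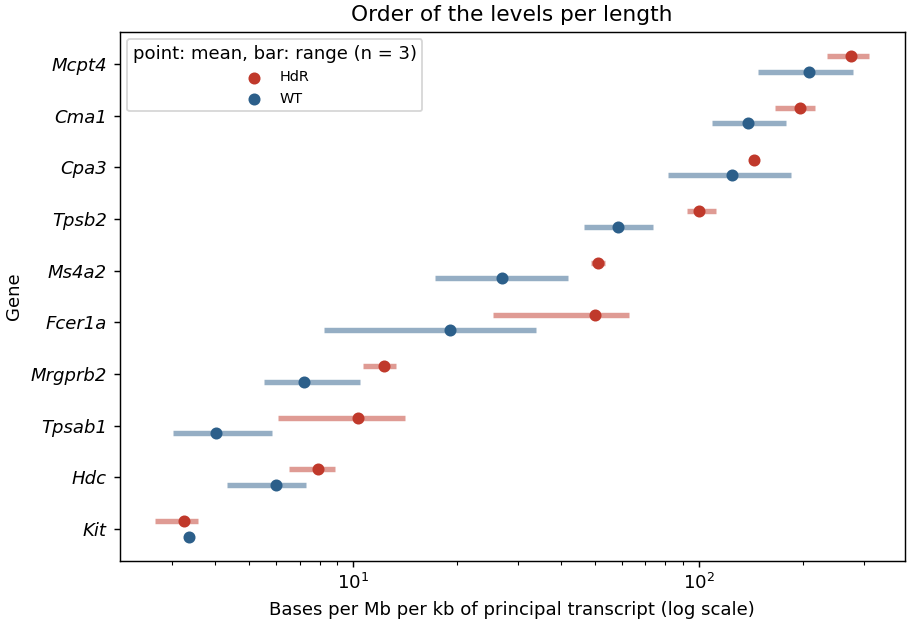
Coverage per kb of the principal transcript (log axis) of the 10 genes, ordered by the HdR mean, with the mean (point) and range (bar) of 3 HdR libraries (red) above those of 3 WT libraries (blue). Mcpt4, Cma1 and Cpa3 lead at 125 or more and Kit stands at 3.24 in HdR and 3.36 in WT.

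GATA factors, which bind DNA with the core letters GATA, and MITF, which binds E-box letters such as CATGTG, are known regulators of mast cell genes. Gata2 had 10.4 ± 0.935 bases per Mb in HdR and 11.6 ± 0.983 in WT, and Mitf 26.6 ± 2.43 in HdR and 27.0 ± 2.05 in WT (SD, n = 3 each); neither passed (limma adjusted p = 0.544 and 0.913). RefSeq promoter windows on GRCm38.p6 were found for 8 of the 10 members. The 250 bases before the start were searched for GATAA, or TTATC on the other strand, and for CATGTG, or CACATG on the other strand; a match of one can share at most its end base with a match of the other. GATAA occurred in 6 of the 8 members, all but Hdc and Kit, and in 22.6% of all 32851 windows. CATGTG occurred in 1 member, Fcer1a, and in 12.3% of all windows. Such a match is a description of the letters and not a binding site. The windows of the receptor genes that rose and of Cpa3, which did not pass, are shown 5′ to 3′ along the gene, with GATAA and TTATC in capitals; their coordinates are chr19:11623720-11623969, chr7:48558087-48558336 and chr3:20242182-20242431, each on the minus strand.
Ms4a2: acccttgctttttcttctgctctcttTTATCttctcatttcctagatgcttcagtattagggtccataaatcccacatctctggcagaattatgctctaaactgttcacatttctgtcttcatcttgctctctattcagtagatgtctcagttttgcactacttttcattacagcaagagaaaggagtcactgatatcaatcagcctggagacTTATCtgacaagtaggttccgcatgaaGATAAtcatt
Mrgprb2: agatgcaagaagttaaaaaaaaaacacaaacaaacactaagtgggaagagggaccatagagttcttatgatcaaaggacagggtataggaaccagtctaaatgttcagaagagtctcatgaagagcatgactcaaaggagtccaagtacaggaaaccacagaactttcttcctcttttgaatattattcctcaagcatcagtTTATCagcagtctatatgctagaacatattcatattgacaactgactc
Cpa3: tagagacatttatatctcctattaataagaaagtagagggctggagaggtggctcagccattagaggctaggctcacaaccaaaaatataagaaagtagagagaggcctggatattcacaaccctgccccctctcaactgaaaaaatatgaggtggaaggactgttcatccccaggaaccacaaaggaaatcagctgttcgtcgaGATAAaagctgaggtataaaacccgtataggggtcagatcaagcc

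Ms4a2 held 3 of these matches, of which the last began 10 bases before the start, whereas 4.3% of all windows held 2 or more. Mrgprb2 and Cpa3 held 1 each, beginning 48 and 45 bases before the start. A gene that rose and a gene that did not pass thus both held a match near the start.

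Other genes linked to mast cells moved in both directions. Of 25 further mast cell genes, 22 were tested, of which 10 rose (Mcpt9, Cma2, Srgn, Tph1, Il1rl1, Rgs13, Smpx, Ltc4s, Cd63 and Cd33) and 2 fell (Ndst2 and Slc45a3), with a median log2 change of 0.52. Of all genes tested 12.7% rose and 17.9% fell, and without WT replicate 1 only 1.33% and 1.55%. The shares for the other fits are those given above. Srgn, the gene of the granule proteoglycan serglycin that many blood cells express, had 217, 319 and 160 bases per Mb in HdR and 84.4, 153 and 60.7 in WT (log2 change 1.26, limma adjusted p = 0.0290). The groups did not overlap, but HdR replicate 3 and WT replicate 2 were close, and Srgn did not pass without HdR replicate 1 or 2 or WT replicate 1 or 3, or with the length trend removed. Cma2, a chymase gene between Cma1 and Mcpt4 that shares sequence with Mcpt4, was low, with 2.83 ± 0.593 in HdR and 0.917 ± 0.292 in WT (SD, n = 3 each; log2 change 1.00, limma adjusted p = 0.0138). Ltc4s, which makes leukotriene C4, had 6.62, 7.75 and 7.92 in HdR and 3.33, 3.01 and 3.21 in WT (log2 change 1.01, limma adjusted p = 0.00979). Smpx, also a gene of striated muscle, had 119 ± 19.7 in HdR and 51.9 ± 5.22 in WT (SD, n = 3 each; log2 change 1.17, limma adjusted p = 0.00615). Of this list, 3 genes rose when HdR replicate 1 or WT replicate 3 was left out, 1 when WT replicate 1 was, 5 when HdR replicate 2 was and 6 when HdR replicate 3 was, 4 without the filter, and 5 with total scaling or the length trend removed, and over all alternatives 0 to 4 fell.

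Of the genes listed here for signalling of the IgE receptor or of KIT, none rose in the TMM-scaled limma fit of all 6 libraries without a block. These lists leave out the member Ms4a2, the beta chain gene of the IgE receptor, which rose in that fit. Of 20 genes of IgE receptor signalling 0 rose and 2 fell (1 and 7 at an unadjusted p under 0.05, and 4 and 7 by voom), with a median log2 change of -0.15. Of all genes tested 12.7% rose and 17.9% fell (22.6% and 30.9% by voom), with a median of -0.13. The 2 that fell were thus not above the share of all genes. Without WT replicate 1 only 1.55% of all genes fell. The phospholipase gene Plcg1 fell to 13.7, 7.18 and 15.8 bases per Mb in HdR, against 36.2, 22.8 and 47.9 in WT (log2 change -1.47, limma adjusted p = 0.0163), and the adaptor gene Gab2 fell by 0.63 on the log2 scale (limma adjusted p = 0.0403). Plcg2 had 9.51 ± 2.04 in HdR and 16.5 ± 4.41 in WT (SD, n = 3 each) and did not pass (limma adjusted p = 0.0526). The number that fell was 7 with the replicate block or total scaling, 4 without HdR replicate 1 or WT replicate 2, 1 without HdR replicate 2, HdR replicate 3 or WT replicate 3 and 0 without WT replicate 1; 4 rose without WT replicate 2, and 1 rose with the block or without HdR replicate 3.

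Of 16 genes of KIT signalling 0 rose and 6 fell (1 and 8 at an unadjusted p under 0.05, and 1 and 9 by voom), namely Ptpn11, Cbl, Cblb, Shc1, Src and Pik3ca, with a median log2 change of -0.35, or -0.09 with the length trend removed, where 3 fell. Most of these genes are expressed in many cell types of skin. The unadjusted counts again cannot be set against the shares that follow, which are for the adjusted p. Of all genes tested 12.7% rose and 17.9% fell. By voom 30.9% of all genes fell, with the length trend removed 11.5%, and without WT replicate 1 only 1.55%. Cbl, a ubiquitin ligase that turns over activated receptors, had 1.62, 2.44 and 1.91 in HdR and 12.9, 4.78 and 20.1 in WT (log2 change -2.01, limma adjusted p = 0.0139), and the phosphatase gene Ptpn11 had 40.8 ± 7.07 in HdR and 88.6 ± 22.0 in WT (SD, n = 3 each; log2 change -1.08, limma adjusted p = 0.0137). Src fell by 1.05 on the log2 scale (limma adjusted p = 0.0276). Kitl, the ligand of KIT, had 62.8, 38.4 and 60.0 in HdR and 67.1, 71.0 and 50.9 in WT (log2 change -0.24, limma adjusted p = 0.411), which is no call. The number that fell was 0 without WT replicate 1, 2 without HdR replicate 2 or WT replicate 3 and 3 without HdR replicate 1 or 3. With the replicate block 1 of these genes rose and 8 fell, and with median-of-ratios scaling or quantile normalisation 1 rose and 5 fell.

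Of the genes that receive, carry or break down histamine, 6 of 11 were tested, 1 rose and 0 fell (1 and 1 at an unadjusted p under 0.05, 1 and 2 by voom). This was Hnmt, the histamine methyltransferase gene, with 19.8, 28.9 and 28.1 bases per Mb in HdR and 13.1, 20.5 and 11.1 in WT (log2 change 0.77, limma adjusted p = 0.0456), and its groups overlapped. Hnmt was not called when HdR replicate 2 or 3 or WT replicate 1 or 3 was left out, and not with total scaling or with the length trend removed. Maob had 24.0 ± 1.09 in HdR and 30.1 ± 0.121 in WT, and Aldh7a1 had 13.0 ± 2.21 in HdR and 17.9 ± 1.49 in WT (SD, n = 3 each); neither passed (limma adjusted p = 0.123 and 0.0912). Of the genes for heparin chains and their core, 10 of 11 were tested, Srgn rose and 4 genes of chain synthesis fell (Ndst1, Ndst2, Glce and Hs6st1), with a median log2 change of -0.54. Beside both lists, 12.7% of all genes tested rose and 17.9% fell. Which cells of the skin carried the transcripts of chain synthesis was not tested. Ndst1 had 19.6, 14.1 and 19.8 in HdR and 40.8, 25.1 and 55.6 in WT (log2 change -1.08, limma adjusted p = 0.0235). Glce fell by 0.77 on the log2 scale (limma adjusted p = 0.0295). The number of heparin genes that fell was 0 without HdR replicate 2, WT replicate 1 or WT replicate 3 and with the length trend removed, 2 without HdR replicate 1 or 3, and 6 without WT replicate 2. Of all genes, 7.64%, 1.55% and 5.04% fell without HdR replicate 2, WT replicate 1 and WT replicate 3, and 11.5% with the length trend removed.

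Markers of other cell types were counted too. By limma no basophil marker was called, whereas macrophage, neutrophil and dendritic cell markers rose, where 12.7% of all genes tested rose and 17.9% fell. Basophils share Fcer1a, Ms4a2 and Cpa3 with mast cells. Their defining markers Mcpt8 and Prss34 were too low to be tested, Mcpt8 with 0.550, 1.09 and 0 bases per Mb in HdR and 0.0576, 0.716 and 0.120 in WT. Of the 6 basophil markers tested 0 rose and 0 fell by limma (0 and 0 at an unadjusted p under 0.05, 2 and 0 by voom or without WT replicate 2), with sums of 50.1 to 65.6 in HdR and 38.3 to 61.7 in WT. Cyp11a1 (25.5 ± 2.15 in HdR and 19.2 ± 4.66 in WT) was the most covered of them, and Cd200r3 had 7.30 ± 0.570 in HdR and 5.51 ± 3.34 in WT (SD, n = 3 each).

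Of 12 macrophage markers 9 rose, where 12.7% of all genes tested rose, with sums of 3210 to 3550 in HdR and 1100 to 1960 in WT. Of 12 neutrophil markers 8 were tested and 5 rose, with sums of 846 to 3440 in HdR and 299 to 353 in WT, while Ly6g, Ngp, Camp and Ltf were too low to be tested. Of 12 dendritic cell markers 5 rose, with sums of 601 to 840 in HdR and 413 to 476 in WT. In none of these lists did a marker fall by limma, also at an unadjusted p under 0.05 and by voom. Without WT replicate 1 the numbers that rose were 3, 4 and 1, and without WT replicate 3 they were 4, 4 and 2, for macrophages, neutrophils and dendritic cells. They were 4, 5 and 3 without HdR replicate 1 and 6, 4 and 2 without HdR replicate 2. The part of these cells in the mast cell gene values was not tested.

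**Figure D5:**
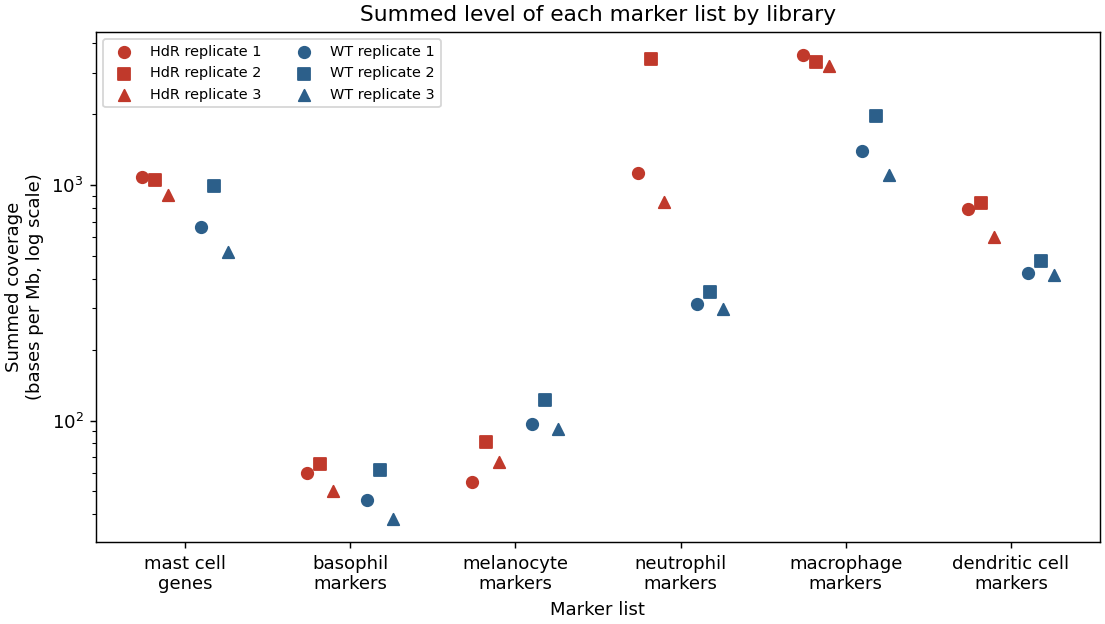
Summed coverage (bases per Mb, log axis) of the mast cell genes and of 5 marker lists in each HdR library (red, left) and WT library (blue, right). The mast cell and basophil sums overlap between the genotypes, the neutrophil, macrophage and dendritic cell sums are higher in every HdR library, and the melanocyte sums are lower.

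The genes outside the set whose values over the 6 libraries were most like the mean profile of the 10 members were Lpxn, Tmem71 and Fndc7, with mean absolute differences of 0.0459, 0.0496 and 0.0549 on the centred log2 scale among 15039 genes compared. Lpxn had 26.1, 21.5 and 19.3 bases per Mb in HdR and 13.4, 20.7 and 10.4 in WT. As in the members, WT replicate 2 was the highest WT library, and the 6 libraries of a single tissue share depth and length trend with every gene.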

How the data were processed

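The authors deposited 1 table of coverage, a signal given as whole-number sums of aligned bases per gene; the build was GRCm38, per the submitters' processing notes, while for the aligner, counting program, annotation and strand the answer is: not given in the sources used here. That the values are bases was read from the values: 10.3% of those up to 3000 can be divided by 300 without remainder, where 0.333% would be by chance. They are not read counts, so the fit described used no count test. Voom, one of the alternatives, is a method made for counts, and it treated these sums of bases as counts. How far this changed the calls by voom was not tested. Scaling to bases per Mb used trimmed means of log ratios (TMM, factors 0.931, 0.792 and 0.973 for HdR and 1.15, 1.02 and 1.19 for WT replicates 1 to 3); a value of 1 equals 11.7 to 23.6 read pairs, depending on the library. Genes reaching 1 base per Mb in 3 or more libraries (15049) entered a robust limma-trend fit of log2(value + 1) in R 4.3.3 with limma 3.58.1, two-sided, Benjamini-Hochberg adjusted over all genes, threshold 0.05. The method was run on simulated data, which held no length trend, replicate pairing or outlying library, so that run cannot show how the fit handles these. The length trend was a natural spline with 4 df in the log2 length of the longest GENCODE M21 transcript, fitted per library; 99% of the genes tested had a length. Levels per kb used the principal transcript. The deviations from the group means of libraries with equal replicate numbers correlated at 0.16, 0.42 and 0.37 across genes. Libraries with unequal numbers correlated at -0.38 to 0.16, the highest being HdR replicate 3 with WT replicate 1, so a pairing of replicate 1 is not shown. The labels do not say that the numbers pair samples, and for that reason the fit described did not pair them. The replicate block, which does, was an alternative. Members, lists and alternatives were chosen with earlier results of these data known. The text names the 10 members, Rbck1, up to 3 genes of smallest p per list, 9 genes tied to a member by function, the 3 genes most like the members, and, where counts are small, the genes counted.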

Additional observations from a re-analysis of the deposited data

How the results depend on the processing

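The fit was repeated under 20 alternatives, of which 2 on the length correction were added after seeing the data. The number of mast cell genes that rose, 4 with the fit described, was 0 with total scaling, no filter, the length trend removed or the trend removed by principal transcript length, 2 with the trend and each library's mean removed, 7 with the replicate block, 8 with voom and 0 to 8 with a library left out. It was 3 with the trend removed and the replicate block together. It was 5 with median-of-ratios scaling or quantile normalisation, 6 at a threshold of 0.1, and 4 with a pseudocount of 0.1, a filter of 5 or a filter on the mean. Among all genes tested, 14.4% rose with median-of-ratios scaling and 14.2% with a filter of 5. With a pseudocount of 0.1 or a filter on the mean 12.6% rose, and by principal transcript length 7.07%. In each of these fits a larger share of all genes fell than rose. Shares for the remaining alternatives are given above. No member fell in any of the 20 alternatives. Added to the fit described, the replicate block changed the calls of Cma1, Mcpt4 and Fcer1a and no other member's call; added to the fit with the length trend removed, it changed those of Ms4a2, Fcer1a and Hdc.

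Over these alternatives the log2 change was 0.25 to 0.99 for Tpsb2 (adjusted p 0.000496 to 0.29), 0.65 to 1.89 for Tpsab1 (0.000256 to 0.198), 0.40 to 1.37 for Ms4a2 (0.000387 to 0.247), 0.48 to 1.16 for Mrgprb2 (0.000391 to 0.165), 0.84 to 1.96 for Fcer1a (0.00184 to 0.172) and 0.10 to 0.74 for Hdc (0.0306 to 0.771), all limma. The other members changed sign somewhere. With the length trend removed, with or without the replicate block, Cma1 was at -0.06, Mcpt4 at -0.12, Cpa3 at -0.16 and Kit at 0.24, and by principal transcript length they were at -0.05, -0.10, -0.11 and 0.28. With the trend and the mean removed Mcpt4 was at -0.02, Cpa3 at -0.05 and Kit at 0.35. Cpa3 was at -0.03 with total scaling, and Kit at 0 with median-of-ratios scaling, 0.15 with quantile normalisation, 0.01 with voom and -0.13 to 0.07 with a library left out, the highest without HdR replicate 2. The cause of these moves was not tested. The longest and the principal transcripts of Ms4a2 have 2391 and 1010 bases and those of Hdc 4518 and 2392. Tpsab1 had the fewest read pairs of the members, 68 in its lowest library. The part of annotated length and of depth in these moves was not tested.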
